A study of Rattus norvegicus with 2 samples.

Results

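The 10 genes studied here belong to the neuromuscular junction and were followed across the cell types of skeletal muscle from a rat-mouse chimera and from a Sprague Dawley (SD) rat. They were the acetylcholine receptor (AChR) subunit genes Chrna1, Chrnb1, Chrnd, Chrne and Chrng, the genes of the MuSK signalling complex Musk, Lrp4, Dok7 and Rapsn, and the gene of its ligand, Agrn. The members were chosen by name, as the gene rows with these symbols. In the chimera library 9 of the 10 members had a row among 23373 rat genes and all 10 had a row among 25906 mouse genes. In the SD rat library 9 of the 10 had a row among the same 23373 rat genes. No rat row was named Chrng, so Chrng was measured only on its mouse row and rat Chrng was not analysed here.

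The chimera arose from an SD rat morula injected with mouse induced pluripotent stem cells (iPSCs), so its muscle holds cells of both species. The iPSCs were of the genotype Dmd mdx; Pax7-nGFP, with the dystrophin gene edited by CRISPR/Cas9 to restore its reading frame and a green fluorescent reporter driven by Pax7, and they were propagated as clones after editing. The SD rat received no cells. Ages were not given in the sources used here for the animals sequenced. Muscle was pooled from the whole body of each animal, digested with collagenase and sorted for live cells, and transcripts were counted as unique molecular identifiers (UMIs) by 10x Genomics 3′ single-cell RNA-seq. Each group was 1 library of 1 animal, so no difference has a replicate check, no p-value was computed, and all intervals are 95% intervals that cover counting error only.

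At the neuromuscular junction the motor nerve releases acetylcholine onto a dense patch of receptors in the muscle fiber membrane. The receptor is built from alpha (Chrna1), beta (Chrnb1) and delta (Chrnd) subunits together with the fetal gamma (Chrng) or the adult epsilon (Chrne) subunit. Nerve-derived agrin (Agrn) binds LRP4 and activates the receptor kinase MuSK, DOK7 is the adaptor that MuSK needs for its activity, and rapsyn (Rapsn) anchors the receptors in clusters. Before innervation, and again after denervation, receptor genes are transcribed throughout the fiber under control of the myogenic factors, of which myogenin (Myog) marks differentiating myoblasts. In innervated fibers, transcription is concentrated in the few nuclei beneath the synapse.

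Cells were compared in 5 classes, rebuilt from marker genes. Myogenic progenitor (MP)-like cells outside cycling clusters were divided into satellite cells, with no Myog UMI, and Myog-positive cells, with at least 1. Myofibers were myocyte-like barcodes, glia were Schwann or glial-like cells, and fibroblasts were fibro-adipogenic progenitor (FAP)-like and tenocyte or fibroblast-like cells. Barcodes of the chimera were taken as rat with at most 20% of UMIs on mouse rows and as mouse with at least 80%, and 1653 barcodes in between entered no class. The classes held 5816 of 8816 SD rat cells, 4573 of 8230 chimera rat cells and 266 of 1847 chimera mouse cells. There were 291 satellite cells and 56 Myog-positive cells in the SD rat, 262 and 133 among chimera rat cells, and 34 and 12 among chimera mouse cells. There were 1525, 836 and 29 myofibers in the same order, and 137, 87 and 25 glial cells. Fibroblasts numbered 3807, 3255 and 166.

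The classes held the markers their names call for. Pax7, which marks satellite cells, stood at 152, 161 and 382 counts per 1000000 UMIs of the class (CPM) in satellite cells of the SD rat, chimera rat and chimera mouse, and at 15.6, 25.7 and 81.9 CPM in Myog-positive cells. Acta1, the skeletal muscle actin, stood at 90520, 93190 and 81040 CPM in myofibers, and at 2233, 1380 and 717 CPM in fibroblasts, of which 99.97%, 99.3% and 99.4% had an Acta1 UMI, so a muscle UMI outside muscle cells is not read here as expression. Sox10, a transcription factor of the glial lineage, stood at 178, 152 and 283 CPM in glia. The 29 mouse myofibers had a median of 84.0% of their UMIs on mouse rows, near the species threshold, against 97.9% in mouse satellite cells. The median depth was 5576, 7221.5 and 8485 UMIs per satellite cell and 11064, 11182 and 13055 UMIs per Myog-positive cell, in the same order. The 2 libraries shared 43 barcode sequences.

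**Figure D1:**
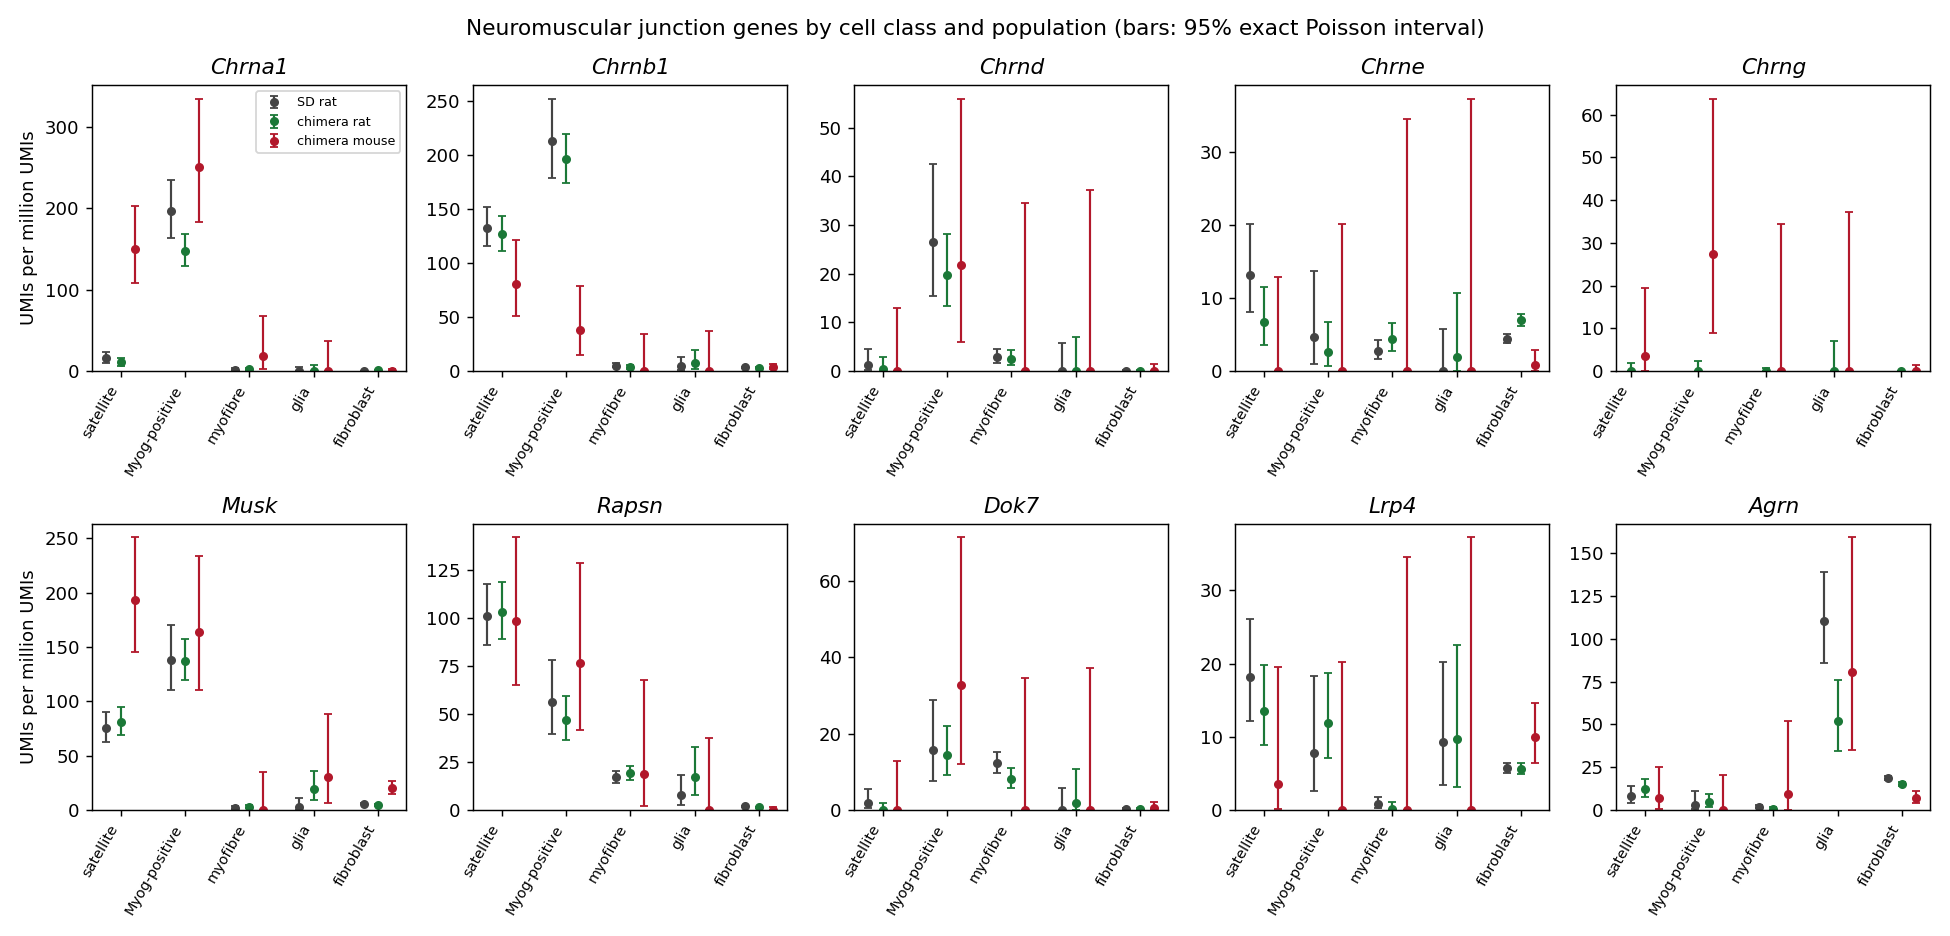
Counts per 1000000 UMIs (CPM) of each of the 10 genes (y axis, linear, from 0) in the 5 cell classes (x axis) of SD rat, chimera rat and chimera mouse cells. Points are summed counts and bars are exact 95% Poisson intervals. Chrna1 was high in Myog-positive cells of all 3 populations and, among satellite cells, in mouse cells only, whereas Agrn was highest in glia.

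The alpha subunit separated Myog-positive from satellite cells most clearly in rat cells. Chrna1 stood at 197 CPM in the 56 Myog-positive cells of the SD rat (126 UMIs, interval 164 to 235) and at 16.3 CPM in its 291 satellite cells (26 UMIs, 10.6 to 23.8). The corresponding levels in chimera rat cells were 148 CPM (224 UMIs, 129 to 168) and 10.9 CPM (21 UMIs, 6.76 to 16.7). Chrna1 was thus 12.1-fold higher in Myog-positive cells of the SD rat (log2 ratio 3.60, 2.98 to 4.27) and 13.5-fold higher in those of the chimera rat (3.76, 3.11 to 4.48). Counted by cells, 42 of 56 Myog-positive cells of the SD rat (75.0%) and 79 of 133 of the chimera rat (59.4%) had a Chrna1 UMI, against 17 of 291 satellite cells (5.84%) and 15 of 262 (5.73%). After each cell was thinned to 1000 UMIs, the shares were 12.5% and 11.0% of Myog-positive cells and 1.77% and 1.15% of satellite cells, with 0 and 6 Myog-positive and 8 and 2 satellite cells too shallow to enter. As a background, 0.424% of 1651 endothelial cells of the SD rat and 0.699% of 715 of the chimera rat had a Chrna1 UMI, at medians of 1836 and 4049 UMIs, or 0.256% and 0.294% after thinning.

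The delta subunit followed the alpha subunit at lower counts. Chrnd had 17 UMIs in 14 of 56 Myog-positive cells of the SD rat (26.6 CPM, 15.5 to 42.6) and 2 UMIs in satellite cells (1.25 CPM, 0.152 to 4.52), together 19 UMIs, below the 20 set for a ratio. In chimera rat cells Chrnd had 30 UMIs in 25 of 133 Myog-positive cells (19.8 CPM) and 1 UMI in 262 satellite cells (0.520 CPM), a ratio of 38.0-fold with an interval on the log2 scale from 2.66 to 10.60. In chimera mouse cells there were 4 Chrnd UMIs in 4 of 12 Myog-positive cells and none in 34 satellite cells. The exact interval of 0 in 34 cells reaches 10.3% of cells with a UMI, and it sets no limit on cells whose transcripts were not captured. Chrnd was thus close to absent from satellite cells at this depth.

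In rat cells the beta subunit was already common in satellite cells, where the alpha and delta subunits were low. Chrnb1 stood at 133 CPM in satellite cells of the SD rat (212 UMIs, 115 to 152) and at 126 CPM in those of the chimera rat (243 UMIs, 111 to 143), and 137 of 291 cells (47.1%) and 149 of 262 cells (56.9%) had a UMI. In Myog-positive cells it stood at 213 CPM (136 UMIs, 179 to 252) and 196 CPM (297 UMIs, 174 to 219). The ratio was 1.61-fold in the SD rat (log2 ratio 0.68, 0.36 to 1.00) and 1.55-fold in the chimera rat (0.63, 0.38 to 0.88), below 2-fold in both. Chrnb1 was also found at 18.0 CPM in endothelial cells of the SD rat and 9.80 CPM in those of the chimera rat, so its UMIs were not limited to muscle cells. In the RefSeq gene table of the rat, Chrnb1 overlaps Zbtb4, and reads of the pair may not be separable.

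The epsilon subunit did not follow the others. Chrne stood at 13.1 CPM in satellite cells of the SD rat (21 UMIs in 15 cells, up to 5 UMIs in 1 cell) and 4.70 CPM in Myog-positive cells (3 UMIs). In the chimera rat the levels were 6.76 CPM (13 UMIs) and 2.64 CPM (4 UMIs). The log2 ratio in the SD rat was -1.48 with an interval from -3.87 to 0.26, which includes no difference, and the chimera rat counts were too few for a ratio. No Chrne UMI was found in the 34 satellite or 12 Myog-positive mouse cells.

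Of the gamma subunit, 5 UMIs were found in 2 of 12 Myog-positive mouse cells (27.3 CPM, 8.87 to 63.7), 4 of them in a single cell, and 1 UMI in 34 mouse satellite cells (3.50 CPM). No UMI lay on the mouse Chrng row in the 133 Myog-positive, 262 satellite and 836 myofiber barcodes of the chimera rat. These zeros say nothing about Chrng transcripts of rat cells.

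Several of these genes have E-boxes (CANNTG, the site of myogenic factors) close to their starts, and the promoters of the genes that were higher in Myog-positive rat cells, or already present in satellite cells, are shown for that reason beside that of Agrn, which was low in both. RefSeq promoters of the rat (build GRCr8) matched 8 of the 10 members, with none for Rapsn or Lrp4. Those of Chrne and Chrng are not printed. The printed promoters were picked by the levels above, and whether E-boxes go with these levels was not tested. The last 150 bases before the start are printed 5′ to 3′ along the gene's strand, and capitals mark E-boxes and the N-box CCGGAA, a site of ETS factors linked to synaptic transcription, read on both strands.
Chrna1, chr3:78877354-78877503, minus strand: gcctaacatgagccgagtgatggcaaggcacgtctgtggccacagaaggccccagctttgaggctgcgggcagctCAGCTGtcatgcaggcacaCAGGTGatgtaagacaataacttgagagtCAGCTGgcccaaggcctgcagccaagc
Chrnd, chr9:95310166-95310315, plus strand: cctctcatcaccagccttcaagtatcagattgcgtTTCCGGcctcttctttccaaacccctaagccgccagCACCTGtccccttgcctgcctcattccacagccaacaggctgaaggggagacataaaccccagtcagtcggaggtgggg
Chrnb1, chr10:55015108-55015257, minus strand: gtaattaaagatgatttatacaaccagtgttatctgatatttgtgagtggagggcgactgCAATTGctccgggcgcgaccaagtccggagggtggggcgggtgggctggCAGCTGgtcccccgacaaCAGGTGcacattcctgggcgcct
Musk, chr5:77853586-77853735, plus strand: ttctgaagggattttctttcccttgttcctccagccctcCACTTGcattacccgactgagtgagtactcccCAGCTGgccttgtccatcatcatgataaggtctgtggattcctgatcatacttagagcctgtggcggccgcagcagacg
Dok7, chr14:79924018-79924167, minus strand: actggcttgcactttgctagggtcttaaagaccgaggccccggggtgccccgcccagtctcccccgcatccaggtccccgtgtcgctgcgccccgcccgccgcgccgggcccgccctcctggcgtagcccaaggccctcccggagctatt
Agrn, chr5:172052826-172052975, minus strand: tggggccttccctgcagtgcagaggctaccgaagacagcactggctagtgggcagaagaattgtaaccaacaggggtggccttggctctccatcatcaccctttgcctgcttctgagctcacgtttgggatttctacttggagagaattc

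Over the 250 bases before the start, Chrna1, Chrnb1, Chrng and Musk each held 3 E-boxes, Chrnd, Chrne and Dok7 held 1 each, and Agrn held 0. The E-box of Dok7 lay at positions -244 to -239 from the start, outside the printed bases. At least 1 E-box was present in 65.5% of the 33469 promoters of the table, with a mean of 1.12 per promoter. The share of all promoters with 3 E-boxes was not taken. The form CAGCTG, which is included among the E-boxes, occurred 2 times in Chrna1, once each in Chrnb1, Chrne, Chrng and Musk, and in 12.0% of all promoters. The N-box was found in Chrnd and Chrne, and in 12.6% of all promoters. These matches describe letters in a window and do not show binding.

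**Figure D2:**
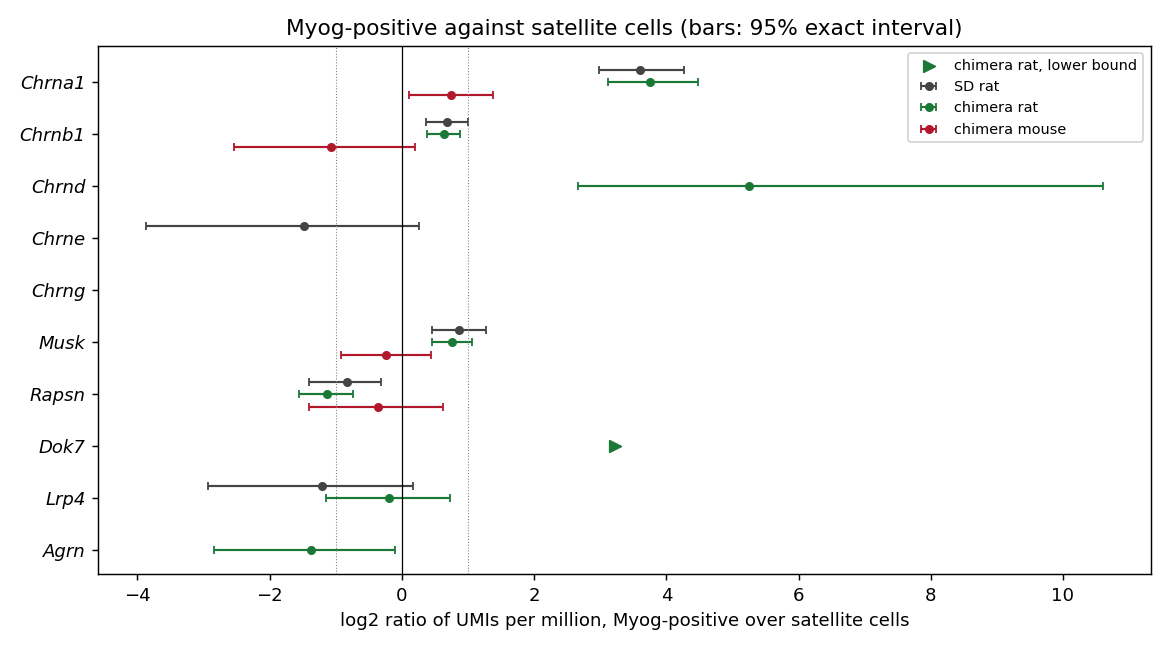
Log2 ratio of CPM, Myog-positive over satellite cells (x axis), for each gene with at least 20 UMIs in both classes together (y axis). Points are ratios, bars exact 95% intervals, the triangle a lower bound where satellite cells had 0 UMIs, and dotted lines mark 2-fold. In rat cells Chrna1 lay beyond 2-fold higher and Chrnb1 and Musk between equal and 2-fold.

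The kinase of the complex was higher, and the anchor lower, in Myog-positive rat cells. Musk stood at 75.7 CPM in satellite cells of the SD rat (121 UMIs) and at 138 CPM in Myog-positive cells (88 UMIs), a log2 ratio of 0.86 (0.45 to 1.27). In chimera rat cells the levels were 81.1 CPM (156 UMIs) and 137 CPM (208 UMIs), a log2 ratio of 0.76 (0.45 to 1.07), so Musk stayed below 2-fold in both. Rapsn ran the other way, from 101 CPM in satellite cells (161 UMIs) to 56.4 CPM in Myog-positive cells (36 UMIs) of the SD rat, a log2 ratio of -0.84 (-1.40 to -0.31). In the chimera rat Rapsn stood at 103 CPM (198 UMIs) and 46.8 CPM (71 UMIs), a log2 ratio of -1.14 (-1.55 to -0.74). Rapsn was found in 110 of 291 (37.8%) and 127 of 262 (48.5%) satellite cells of the SD rat and chimera rat, and in 1.09% and 1.54% of endothelial cells.

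The adaptor was found mainly in Myog-positive cells. Dok7 had 10 UMIs in 5 of 56 Myog-positive cells of the SD rat (15.7 CPM, 7.51 to 28.8) and 3 UMIs in 291 satellite cells (1.88 CPM). In chimera rat cells it had 22 UMIs in 14 of 133 Myog-positive cells (14.5 CPM) and none in 262 satellite cells, at least 9.30-fold higher by level when satellite cells are set to 3 counts over the class, and the exact interval of the log2 ratio from 22 and 0 UMIs starts at 2.80. In mouse cells Dok7 had 6 UMIs in 4 of 12 Myog-positive cells and none in 34 satellite cells. All Dok7 UMIs of Myog-positive cells, in each of the 3 populations, came from cells with at least 5 Myog UMIs.

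The agrin receptor Lrp4 was low in both classes. It stood at 18.1 CPM (29 UMIs) and 7.83 CPM (5 UMIs) in satellite and Myog-positive cells of the SD rat, a log2 ratio of -1.21 with an interval from -2.94 to 0.17. In the chimera rat it stood at 13.5 CPM (26 UMIs) and 11.9 CPM (18 UMIs), a log2 ratio of -0.19 (-1.14 to 0.73). Both intervals include equal levels.

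Summed over the group, the 4 AChR subunits with a rat row stood at 441 CPM in Myog-positive and 163 CPM in satellite cells of the SD rat, 2.70-fold apart (log2 ratio 1.44, 1.19 to 1.68). In the chimera rat the sum was 366 and 145 CPM, 2.53-fold apart (1.34, 1.13 to 1.55). For the 4 MuSK complex genes the SD rat had 218 and 196 CPM (0.15, -0.15 to 0.44) and the chimera rat 210 and 198 CPM (0.09, -0.13 to 0.31), as the higher Musk and Dok7 and the lower Rapsn offset each other. Of the members with at least 20 UMIs, 1 of 6 in the SD rat and 3 of 8 in the chimera rat were at least 2-fold higher in Myog-positive cells, beside 9.32% and 7.60% of all genes tested. At least 2-fold lower were 2 of 6 and 2 of 8 members, beside 15.9% and 13.2% of all genes. The members' median log2 ratio was -0.08 in the SD rat and 0.69 in the chimera rat, against 0.00 and -0.04 over all genes, and the member counts are small. In the chimera mouse 0 of 4 members were at least 2-fold higher, beside 7.45% of all genes, and 1 of 4, Chrnb1, was lower (log2 ratio -1.08, -2.54 to 0.19, an interval that includes equal levels), beside 17.1%, with a median of -0.30 against -0.10. These counts depend on the minimum of 20 UMIs: with at least 1 UMI, 3 of 9 members were higher in each of the 3 populations, and 3, 3 and 1 of 9 were lower in the SD rat, chimera rat and chimera mouse. No share of all genes was taken at that lower minimum. Ratios from so few UMIs pass 2-fold easily by counting error, so the counts show only this dependence.

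Myogenic progenitors were also divided by how many Myog UMIs they held, since a single UMI sets the class. A Myog UMI was found in 1.42% of SD rat fibroblasts and in 2.12% of chimera rat fibroblasts. Chrna1 stood at 16.3, 74.3, 127 and 221 CPM in SD rat cells with 0, 1, 2 to 4 and at least 5 Myog UMIs, from 26, 4, 10 and 112 UMIs. In chimera rat cells it stood at 10.9, 36.5, 58.4 and 170 CPM, from 21, 5, 8 and 211 UMIs. The levels ordered with Myog in both libraries, though the middle steps rest on 4 to 10 UMIs and neighbouring intervals overlapped except between the last 2 steps of the chimera rat. Chrnb1 and Musk showed no such order in the SD rat. Rapsn stood at 101 and 103 CPM without Myog and at 41.5 and 43.5 CPM in cells with at least 5 Myog UMIs, and its levels with 1 UMI or 2 to 4 UMIs lay between these values only in the chimera rat. Deeper cells have more Myog UMIs at the same level, and the median depth was 5576 UMIs without Myog and 13323.5 UMIs with at least 5 in the SD rat, so the grouping is not independent of depth.

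**Figure D3:**
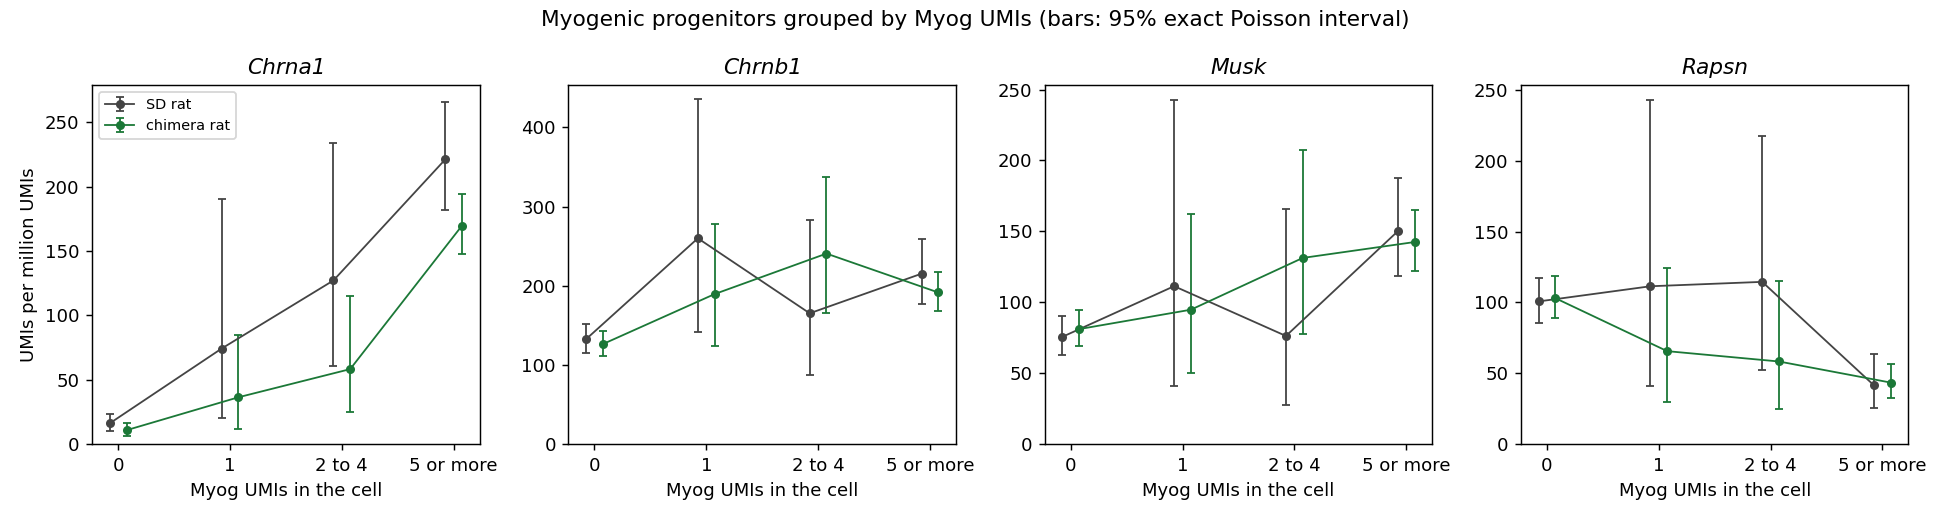
Counts per 1000000 UMIs (CPM) (y axis, linear, from 0) of Chrna1, Chrnb1, Musk and Rapsn in myogenic progenitor-like rat cells grouped by their Myog UMIs (x axis). Points are summed counts of the SD rat and of chimera rat cells, and bars are exact 95% Poisson intervals. Chrna1 ran from 16.3 and 10.9 without Myog to 221 and 170 with at least 5 Myog UMIs.

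Subunits were often detected in the same cells. Any AChR subunit was found in 53 of 56 Myog-positive cells of the SD rat (94.6%), 113 of 133 of the chimera rat (85.0%) and 11 of 12 of the chimera mouse (91.7%), against 51.9%, 59.9% and 70.6% of satellite cells. Of the Myog-positive cells with Chrna1, 33 of 42 in the SD rat, 68 of 79 in the chimera rat and 5 of 11 in the chimera mouse also held Chrnb1. Chrnd was found beside Chrna1 in 13, 21 and 4 of these cells. Over all Myog-positive cells, Chrnb1 was found in 78.6%, 75.9% and 41.7% and Chrnd in 25.0%, 18.8% and 33.3%, in the same order. Whether the genes occur together more often than these shares give was not tested. No satellite cell of the 3 populations held both Chrna1 and Chrnd, but only 2, 1 and 0 satellite cells held Chrnd at all. The lack of such cells therefore says nothing about joint expression. Deeper cells hold more UMIs of every gene, so joint detection depends on depth.

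Cycling myogenic clusters, which were kept apart from both classes, resembled satellite cells in Rapsn and Musk, and in Chrnb1 in the SD rat only. Among 61 cycling cells of the SD rat and 60 of the chimera rat, Chrnb1 stood at 128 and 169 CPM, Rapsn at 94.9 and 89.6 CPM and Musk at 64.1 and 73.8 CPM. In the chimera rat the Chrnb1 level lay between those of satellite cells (126 CPM) and Myog-positive cells (196 CPM). Chrna1 stood at 37.4 CPM (28 UMIs, 24.9 to 54.1) and 31.6 CPM (24 UMIs, 20.3 to 47.0), above non-cycling satellite cells and below Myog-positive cells, with intervals that did not overlap either class. The cycling cells were not divided by Myog here and mix both kinds: counting them with the other classes took the AChR UMIs of Myog-positive cells from 282 to 312 in the SD rat and from 555 to 612 in the chimera rat, and those of satellite cells from 261 to 336 and from 278 to 383. No Chrnd UMI was found in them.

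The genes whose level over clusters was most like that of Chrna1 were Pnma8b, Lix1, Hdac11, Myog and Myod1, with Pearson's r of 0.90, 0.88, 0.86, 0.84 and 0.82. The correlation was taken over 83 clusters of at least 20 cells of the 3 populations, among 12773 genes with at least 100 UMIs. The clusters share 2 libraries and their depth, so the values are a description. For Rapsn the leading gene was Fgfr4 (0.94), for Musk Megf10 (0.90), for Chrnb1 Cdh15 (0.88), for Chrnd Klhl40 (0.88), and for Dok7 also Klhl40 (0.82). Fgfr4, Cdh15, Myog and Myod1 were among the markers that named MP-like clusters.

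Mouse cells of the chimera differed from rat cells in the alpha subunit before Myog. Chrna1 stood at 151 CPM in the 34 mouse satellite cells (43 UMIs, 109 to 203) and at 251 CPM in the 12 Myog-positive mouse cells (46 UMIs, 184 to 335). It was found in 20 of the 34 satellite cells (58.8%, 40.7 to 75.3), with 13 cells at 2 or more UMIs, at most 5 in a cell, and 19 of the 43 UMIs in the 5 highest cells. Against chimera rat satellite cells, of the same library, Chrna1 was 13.8-fold higher (log2 ratio 3.79, 3.00 to 4.61). After thinning to 1000 UMIs the shares of satellite cells with a Chrna1 UMI were 8.82% (1.86 to 23.7) in mouse and 1.15% (0.239 to 3.34) in rat. Of the 43 UMIs, 42 lay on the mouse row. Within mouse cells the ratio of Myog-positive to satellite cells was 1.67-fold (0.74, 0.11 to 1.37), and this interval did not overlap those of the rat populations.

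Musk was likewise higher in mouse satellite cells, at 193 CPM (55 UMIs, 145 to 251) against 81.1 CPM, 2.37-fold (log2 ratio 1.25, 0.78 to 1.70). In Myog-positive cells it was 164 CPM in mouse and 137 CPM in rat (0.26, -0.35 to 0.81). Chrnb1 was lower in mouse than in rat Myog-positive cells, at 38.2 CPM (7 UMIs) against 196 CPM, 5.12-fold (-2.36, -3.68 to -1.30), and stood at 80.6 CPM (23 UMIs) against 126 CPM in satellite cells (-0.65, -1.33 to -0.03). Rapsn in satellite cells stood at 98.1 and 103 CPM (-0.07, -0.70 to 0.51). The sum of the 4 subunits with rows of both species was 1.60-fold higher in mouse satellite cells (0.68, 0.27 to 1.07) and had an interval that includes equal levels in Myog-positive cells (-0.23, -0.65 to 0.16).

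Differences between mouse and rat cells of this library are common. At least 2-fold higher in mouse satellite cells were 2 of 6 members tested, beside 18.0% of all genes, and lower 1 of 6, beside 16.6%. In Myog-positive cells 1 of 6 members was higher, beside 14.2%, and 1 of 6 lower, beside 21.0%. The lower member in satellite cells was Lrp4, from 1 mouse UMI (log2 ratio -1.95, -7.31 to 0.66). The higher member in Myog-positive cells was Dok7, from 6 mouse UMIs (1.18, -0.42 to 2.52). Both intervals include equal levels. At least 2-fold apart in either direction were 34.6% of all genes in satellite cells and 35.1% in Myog-positive cells. In myofibers 0 of 4 members were called, beside 17.1% of genes higher, 8.14% lower and 25.2% in either direction. Chrnb1, Chrne and Dok7 had 0 mouse UMIs there and could not be called at this depth, and Rapsn had 2. The count is thus not read as likeness between the species. In glia Agrn alone was tested and not called, beside 12.0%, 20.3% and 32.4% in the same order. The rows of the 2 species belong to different annotations. The mouse cells also came from the injected iPSCs, with edited dystrophin and the Pax7-nGFP reporter, and the rat cells from the host. Species, annotation, donor origin and genotype therefore cannot be told apart here. The 46 mouse MP-like cells formed 1 cluster and were too few to be split further. Any cycling cells among them stayed in the mouse satellite and Myog-positive classes, whereas cycling clusters were kept apart in rat cells.

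Myofiber barcodes held little message for most members. They came from digested muscle sorted for live cells, at medians of 3660 UMIs in the SD rat and 5386 UMIs in the chimera rat. Whether they include the few nuclei beneath the synapse was not tested. The levels below describe these barcodes and not whole fibers. Chrna1 stood at 1.96 CPM in the SD rat (13 UMIs in 8 of 1525 barcodes) and 2.49 CPM in the chimera rat (13 UMIs in 10 of 836), and in endothelial cells at 1.42 and 1.87 CPM, with overlapping intervals. Musk stood at 2.26 and 3.07 CPM in myofibers and at 4.45 and 1.63 CPM in endothelial cells, again with overlapping intervals. Chrnb1 stood at 5.26 and 3.83 CPM, below its 18.0 and 9.80 CPM in endothelial cells. The 4 subunits summed to 12.8 CPM in the SD rat and 13.2 CPM in the chimera rat, 34.5-fold and 27.7-fold below Myog-positive cells (log2 ratios -5.11, -5.48 to -4.76, and -4.79, -5.17 to -4.43).

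Rapsn, Dok7 and Chrnd stood above their level in endothelial cells. Rapsn was found in 106 of 1525 (6.95%) and 91 of 836 (10.9%) myofibers, at 17.0 CPM (113 UMIs, 14.0 to 20.4) and 19.0 CPM (99 UMIs, 15.4 to 23.1), against 4.86 and 3.27 CPM in endothelial cells and 1.83 and 1.33 CPM in fibroblasts. After thinning, 1.95% and 2.77% of myofibers and 0.256% and 0.147% of endothelial cells held a Rapsn UMI. Dok7 stood at 12.2 CPM (81 UMIs in 75 barcodes) and 8.05 CPM (42 UMIs in 38 barcodes), against 1.82 CPM and 0 UMIs in endothelial cells. Chrnd stood at 2.86 CPM (19 UMIs in 18 barcodes) and 2.49 CPM (13 UMIs in 12 barcodes), against 0.405 CPM and 0 UMIs. No myofiber held more than 3 Rapsn, 2 Dok7 or 2 Chrnd UMIs, and the highest counts of any member in a myofiber were 6 UMIs of Chrne and 4 of Chrna1 and Musk.

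Against Myog-positive cells, Rapsn was 3.32-fold lower in myofibers of the SD rat (log2 ratio -1.73, -2.28 to -1.15) and 2.47-fold lower in the chimera rat (-1.30, -1.76 to -0.84). Dok7 was less than 2-fold below Myog-positive cells, with log2 ratios of -0.36 (-1.31 to 0.75) and -0.85 (-1.63 to -0.04). Chrne had log2 ratios of -0.80 (-2.57 to 1.61) and 0.74 (-0.81 to 2.73), which do not set its direction. At least 2-fold lower were 5 of 7 members in both rats, beside 58.3% and 62.8% of all genes, and no member was at least 2-fold higher, beside 12.6% and 11.3%. In either direction, 70.9% and 74.1% of all genes were at least 2-fold apart. The median log2 ratio of all genes tested was -1.43 and -1.67 here, so most genes took a smaller share of a myofiber's UMIs, and the members' medians were -3.22 and -2.99. The 29 mouse myofibers held 2 AChR subunit UMIs, both of Chrna1 and 1 of them on the rat row, and 2 UMIs of Rapsn, too few for a level. Only Chrna1 and Musk were tested there, and both were at least 2-fold lower, beside 61.1% of all genes lower, 16.2% higher and 77.3% in either direction.

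Between the libraries, rat cells of the chimera and of the SD rat were within 2-fold of each other in every member tested in the muscle classes. The AChR sum differed by a log2 ratio of -0.18 in satellite cells (-0.42 to 0.07), -0.27 in Myog-positive cells (-0.48 to -0.06) and 0.05 in myofibers (-0.43 to 0.52). Of the members tested, 0 of 7 were at least 2-fold apart in each of the 3 muscle classes, beside 7.34%, 9.52% and 10.7% of all genes. Those genes were higher in the chimera rat in 4.03%, 5.76% and 3.12% of cases tested and lower in 3.32%, 3.76% and 7.56%. Musk in Myog-positive cells, at 137 and 138 CPM, had a log2 ratio of -0.01 (-0.37 to 0.37), and Rapsn in satellite cells one of 0.03 (-0.28 to 0.34). Chrna1 in Myog-positive cells was the member with the clearest difference there, 1.34-fold lower in the chimera rat (-0.42, -0.74 to -0.09). Dok7 in myofibers was 1.51-fold lower (-0.60, -1.17 to -0.04).

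**Figure D4:**
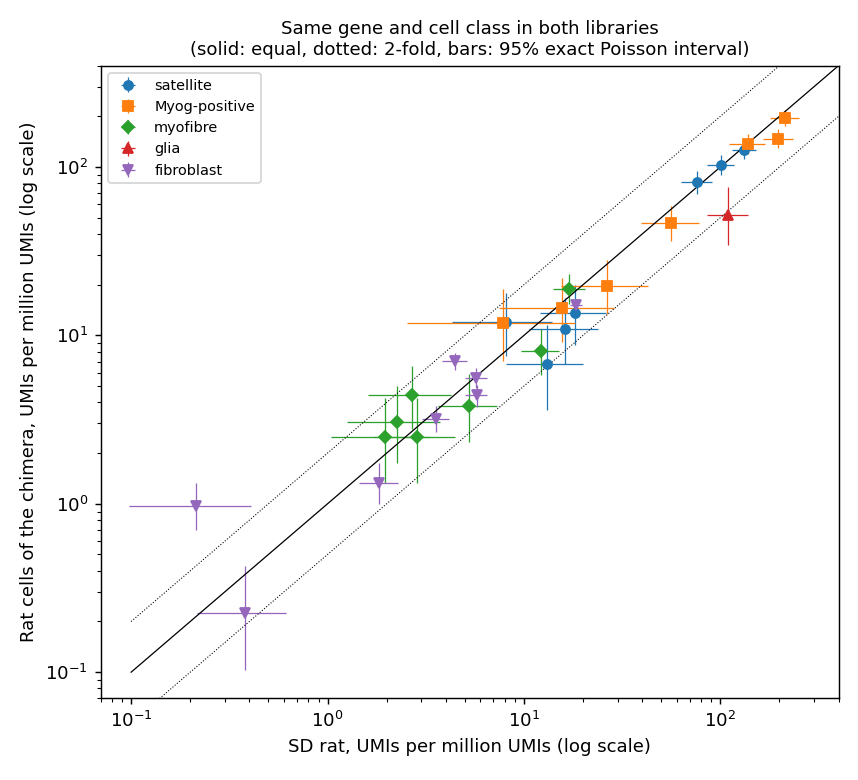
Counts per 1000000 UMIs (CPM) of the same gene and cell class in the SD rat (x axis, log scale) and in chimera rat cells (y axis, log scale), for members with at least 20 UMIs in both together. Each point is 1 gene in 1 class with exact 95% Poisson intervals, the solid line marks equal levels and dotted lines 2-fold. Points of satellite cells, Myog-positive cells and myofibers lie within the dotted lines, and Agrn in glia and Chrna1 in fibroblasts lie outside.

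In glia and fibroblasts, the other classes compared, 2 members were over 2-fold apart between the libraries. Agrn in glia was 2.12-fold lower in the chimera rat (-1.08, -1.78 to -0.42), the only member tested in glia, beside 5.35% of genes lower. Chrna1 in fibroblasts was 4.57-fold higher in the chimera rat, at 0.977 CPM (39 UMIs in 15 cells) against 0.214 CPM (9 UMIs in 7 cells), 1 of 8 members beside 7.38% of genes higher, 2.17% lower and 9.55% in either direction. Of those 39 UMIs, 30 lay in the 6 cells that also held Myog UMIs, and 12 in a single cell. Myog was found in 40.0% of the Chrna1-positive fibroblasts and in 1.94% of the others. Their part in the difference was not tested.

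Agrn had a pattern of its own, with little message in muscle cells. It stood at 110 CPM in glia of the SD rat (71 UMIs in 45 of 137 cells, 86.0 to 139), at 52.0 CPM in glia of the chimera rat (27 UMIs in 18 of 87 cells, 34.3 to 75.7) and at 80.8 CPM in mouse glia (8 UMIs in 7 of 25 cells, 34.9 to 159). Fibroblasts had 18.5, 15.2 and 7.13 CPM. Glia were thus 5.95-fold above fibroblasts in the SD rat (log2 ratio 2.57, 2.20 to 2.92), 3.42-fold in the chimera rat (1.77, 1.16 to 2.33) and 11.3-fold in mouse cells (3.50, 2.09 to 4.78). After thinning, the share of cells with an Agrn UMI was 10.7% of glia and 1.61% of fibroblasts in the SD rat, while in the chimera rat it was 2.38% (0.290 to 8.34) and 1.63% (1.23 to 2.13), with overlapping intervals. In mouse cells it was 4.17% (0.105 to 21.1) of 24 glial cells and 0.6135% (0.0155 to 3.37) of 163 fibroblasts, also with overlapping intervals. Genes at least 2-fold higher in glia made up 26.0%, 25.9% and 20.8% of all genes in the 3 populations, and genes apart in either direction 36.8%, 35.2% and 34.6%.

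Agrn was not particular to glia. Lymphatic endothelial cells stood at 127 CPM in the SD rat (103 to 155) and 70.7 CPM in the chimera rat (52.8 to 92.8), with intervals that overlapped those of glia. Endothelial cells stood at 64.0, 41.8 and 39.4 CPM in the SD rat, chimera rat and chimera mouse, and pericyte or mural cells at 52.0 and 39.0 CPM in the rat populations. Satellite cells had 8.13, 12.0 and 7.01 CPM, and Myog-positive cells 3.13, 4.62 and 0 CPM. Myofibers of the SD rat and chimera rat had 1.80 and 0.766 CPM. Counting at the 3′ end does not separate the nerve form of agrin, made by alternative splicing, from the other forms.

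**Figure D5:**
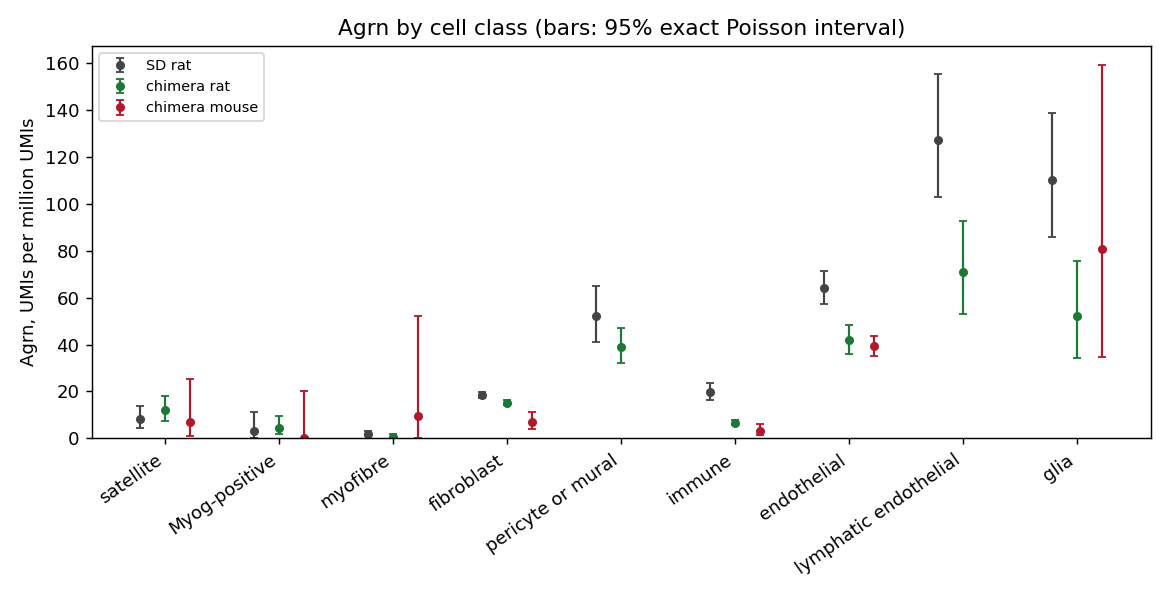
Agrn counts per 1000000 UMIs (CPM) (y axis, linear, from 0) in 9 cell classes (x axis) of SD rat, chimera rat and chimera mouse cells. Points are summed counts and bars exact 95% Poisson intervals. Glia and lymphatic endothelial cells of the SD rat stand at 110 and 127, and myofibers at 1.80.

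Glia held few other members, and no UMI of Chrna1 or Chrnd in any population. In the chimera rat Musk was found in 8 of 87 glial cells (10 UMIs, 19.3 CPM, 9.24 to 35.4) and Rapsn in 7 (9 UMIs, 17.3 CPM, 7.93 to 32.9), 4.37-fold and 13.1-fold above fibroblasts, and after thinning to 1000 UMIs no Rapsn UMI was left in 84 glial cells. In the SD rat Rapsn was found in 4 of 137 glial cells (5 UMIs, 7.75 CPM) and Musk in 2 (2 UMIs, 3.10 CPM), with a Musk log2 ratio to fibroblasts of -0.89 (-3.94 to 0.98). At least 2-fold higher in glia than in fibroblasts were 2 of 6 members in the SD rat, 4 of 7 in the chimera rat and 1 of 3 in mouse cells, beside 26.0%, 25.9% and 20.8% of all genes. Lower was 1 of 7 in the chimera rat, Chrne, beside 9.28% of genes, from 1 glial UMI (log2 ratio -1.86, -7.17 to 0.63) and with a direction that turned under 4 alternatives (0.753, 0.597, 0.81 and 1.656), and none in the SD rat or mouse cells, beside 10.8% and 13.7%.

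Among fibroblasts, Musk was found in 206 of 3807 cells of the SD rat (5.41%, 5.74 CPM), in 143 of 3255 of the chimera rat (4.39%, 4.41 CPM) and in 24 of 166 mouse cells (14.5%, 20.2 CPM). Mouse fibroblasts were 4.58-fold above rat fibroblasts of the same library (log2 ratio 2.20, 1.72 to 2.65), and 50 of the 51 mouse UMIs were in FAP-like cells (26.6 CPM). Of 7 members tested between mouse and rat fibroblasts, 1 was at least 2-fold higher in mouse cells and 3 were lower (Chrna1, Chrne and Agrn), beside 20.2% and 13.5% of all genes and 33.8% in either direction. The Chrna1 ratio rests on 1 mouse UMI and its interval includes equal levels (-1.30, -6.64 to 1.26), and that of Chrne (-3.15, -6.20 to -1.28) turned to 0.168 with species by the majority of UMIs. Lrp4 stood at 5.70, 5.58 and 9.90 CPM in fibroblasts. Chrne was found in 152 of 3807 and 188 of 3255 rat fibroblasts (4.44 and 7.01 CPM) but in 2 of 166 mouse fibroblasts, with both UMIs on the rat row, and in the chimera rat it was higher in lymphocytes, which lie outside the 5 classes. In T or NK-like cells of the chimera rat Chrne stood at 264 CPM and in B cell-like cells at 196 CPM, and an unnamed SD rat cluster of 158 cells, with Ccl5, Cd79a and Nkg7 among its leading genes, stood at 190.3 CPM. In the RefSeq table of the rat the gene overlaps C10h17orf107 and Gp1ba. Whether these UMIs belong to Chrne was not tested, and no level of Chrne in rat cells is read here as the adult receptor.

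Rat and mouse rows of the same gene were added in chimera cells, because a rat read can fall on a mouse row only where the reference holds both. Over the 5 classes of chimera rat cells the mouse row held 1.35% of Chrna1, 0.930% of Rapsn, 4.06% of Musk and 6.07% of Chrnb1 UMIs, and 12.8% of Lrp4 UMIs, the highest share among the members with a rat row.

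Other genes of the synapse were measured between Myog-positive and satellite cells. Of 28 synaptic partner genes, 19 were tested in the SD rat, with 2 at least 2-fold higher and 3 lower, beside 9.32% and 15.9% of all genes, and a median log2 ratio of -0.23 against 0.00 over all genes. In the chimera rat 21 were tested, with 1 higher and 3 lower, beside 7.60% and 13.2%, and a median of -0.19 against -0.04, and in mouse cells 8 were tested, with 0 higher and 2 lower, beside 7.45% and 17.1%. These counts are close to the shares of all genes in both rats. Macf1, a linker of microtubules and actin, stood at 791 and 152 CPM in Myog-positive and satellite cells of the SD rat (log2 ratio 2.38, 2.16 to 2.61) and at 468 and 138 CPM in the chimera rat (1.76, 1.56 to 1.97). Lamb2, a laminin of the synaptic basal lamina, ran the other way, at 26.6 and 88.8 CPM in the SD rat (-1.74, -2.56 to -1.01) and 19.8 and 47.9 CPM in the chimera rat (-1.27, -1.92 to -0.67). Dvl1, which binds MuSK, was 3.58-fold higher in the SD rat, but had a log2 ratio of 0.34 (-0.69 to 1.37) in the chimera rat.

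Of 12 genes that respond to denervation, 6 were tested in the SD rat, with 1 at least 2-fold higher and 1 lower, beside 9.32% and 15.9% of all genes, and 9 in the chimera rat, with 3 higher and 0 lower, beside 7.60% and 13.2%. Myog, which defines the class and is higher by construction, is the gene counted as higher in the SD rat and 1 of the 3 in the chimera rat. None of the 11 neuronal AChR subunit genes reached 20 UMIs in satellite and Myog-positive cells together, in any of the 3 populations.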

How the data were processed

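The authors processed the 2 libraries with Cell Ranger 7.1.0 and deposited raw UMI counts per gene and barcode. The chimera was counted against rat (mRatBN7.2) and mouse (GRCm39) genes together and held 13299 barcodes and 118872850 UMIs, and the SD rat held 10117 barcodes and 70957559 UMIs. No rat row was named Chrng, which was not analysed here in rat cells.

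Barcodes with at least 500 UMIs, at least 200 genes and at most 20% mitochondrial UMIs were kept, and predicted doublets were removed (444 of 12174 in the chimera, 164 of 8980 in the SD rat), leaving 11730 and 8816. Cells were clustered with scanpy 1.11.5 and leidenalg 0.10.2 (2000 variable genes without the listed genes, 30 components, 15 neighbours, resolution 1). Clusters were named when at least 3 markers of a type were raised. The naming rules were revised after the clusters had been seen, because earlier versions left the mouse MP cluster or FAP clusters unnamed. MP-like clusters were split once more where they held at least 100 cells, which left the mouse MP cluster unsplit.

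UMIs were summed per class, with the rat and mouse rows of a gene added, and divided by all UMIs of the class. Intervals were exact at 95% (Poisson for levels, Clopper-Pearson for shares, conditional binomial for ratios). A ratio was taken for genes with at least 20 UMIs in both groups, 2-fold marked a difference, and a group at 0 took 3 counts over the class. Where that bound fell on the wrong side of equal levels, no fold was given, a rule added after seeing values, as were the bins of Myog UMIs. With 1 library per group there was no test. Ratios were checked on simulated data.

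All members were named, and of each other list up to 4 genes at least 2-fold apart between Myog-positive and satellite cells of the SD rat, those with most UMIs, and the 5 genes most like Chrna1 over clusters (log2(CPM + 10)). Some genes that this rule names are not reported here. The leading genes for other members were chosen after their values were seen. Alternatives changed the species call, row, doublets, depth, Myog threshold, cycling cells, denominator, pseudocount, resolution and clustering genes. The members and lists were chosen with earlier results of these data known.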

Additional observations from a re-analysis of the deposited data

Results flagged for a closer look

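Several members had ratios of opposite sign in the populations, and in none of these cases was the difference between populations tested. Between Myog-positive and satellite cells, Chrnb1 had log2 ratios of 0.683 in the SD rat, 0.632 in the chimera rat and -1.075 in the chimera mouse, the last from 7 and 23 UMIs. Musk had 0.864, 0.757 and -0.234 in the same order.

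Between myofibers and Myog-positive cells, Chrne had log2 ratios of -0.795 in the SD rat and 0.741 in the chimera rat, from 3 and 4 UMIs in Myog-positive cells. Between glia and fibroblasts, Musk had -0.889 in the SD rat, 2.128 in the chimera rat and 0.585 in the chimera mouse, from 2, 10 and 3 UMIs in glia.

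Outside the classes compared, Chrne stood at 113.4 CPM in immune cells of the chimera rat (601 of 2329 cells), all on the rat row. The immune class of the SD rat stood at 10.7 CPM but held no cluster named as lymphocytes. An unnamed SD rat cluster with Ccl5, Cd79a and Nkg7 among its leading genes stood at 190.3 CPM (56 of 158 cells), beside 195.9 CPM in B cell-like and 264 CPM in T or NK-like cells of the chimera rat. The genes most like Chrne over clusters were Sit1, Myb and Treml2, with Pearson's r of 0.86, 0.82 and 0.79.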

How the results depend on the processing

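Of 180 values of the group sums and of Agrn under the alternatives, 174 stayed within the 95% counting interval of the reported value and 6 moved beyond it, and no ratio of at least 2-fold turned direction. Some of these values could not change. The species call and the row do not touch ratios within the SD rat. The Myog threshold does not touch ratios without Myog-positive cells. Counting cycling cells does not touch ratios within mouse cells, which had no cycling myogenic cluster. Below 2-fold, 2 sums with intervals that include equal levels changed sign: the MuSK complex of the chimera mouse between Myog-positive and satellite cells (-0.108) was 0.13 with species by the majority of UMIs, and the AChR sum of myofibers between the libraries (0.049) was -0.037 with the row of the cell's own species and -0.08 with doublets kept. With species called at 90% and 10%, the log2 ratio of the MuSK complex between Myog-positive and satellite cells of the chimera rat was 0.338, and that of the AChR sum between myofibers and Myog-positive cells was -4.417 in the chimera rat and -1.837 in the chimera mouse, the last a bound from 0 UMIs. On the log2(CPM + 10) scale, the AChR sum between these classes was -4.309 in the SD rat and -4.017 in the chimera rat, and Agrn between glia and fibroblasts of the SD rat was 2.074. The call at 90% and 10% gave no value for Agrn in chimera rat glia.

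Of 1066 values of single members, 5 turned the direction of a ratio of at least 2-fold, all of Chrne, and the cause was not tested. Between mouse and rat fibroblasts its log2 ratio was 0.168 with species by the majority of UMIs. Between glia and fibroblasts of the chimera rat it was 0.753 with species by majority, 0.597 with doublets kept, 0.81 with at least 1000 UMIs and 1.656 at resolution 2. Thinning moved 97 of 145 shares of cells. Counting genes with at least 1 UMI moved 6 of 38 counts of members.

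No paired analysis was possible because each group is 1 library. Low UMI counts of Chrnd, Dok7, Lrp4 and Chrne, and the 12 Myog-positive and 29 myofiber mouse barcodes, limit what could be detected.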

Other observations

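Barcodes with UMIs of both species, which entered no class, held each of the members except Chrng. Among the 1653 barcodes, Agrn stood at 28.0 CPM in 231 barcodes, Chrnb1 at 15.4 CPM in 116, Rapsn at 7.06 CPM in 66, Musk at 6.81 CPM in 39 and Chrna1 at 2.96 CPM in 20.

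Chrnb1 was also found in endothelial cells of mouse origin, at 25.9 CPM in 178 of 1145 cells (15.5%), and in lymphatic endothelial cells at 27.8 CPM in the SD rat and 28.6 CPM in the chimera rat, with intervals of 17.2 to 42.5 and 17.7 to 43.7.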
